A study of Mus musculus with 9 samples.

Results

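Desmosomes are spot-like junctions that tie the keratin networks of neighbouring epithelial cells together. Their adhesive core is built from 2 families of cadherins, the desmocollins and the desmogleins, whose tails bind the armadillo proteins plakoglobin and plakophilin. Desmoplakin then links this plaque to keratin filaments. In skin, desmosomes join keratinocytes of the epidermis and of the hair follicle, and their cadherins differ between layers, whereas fibroblasts and the mesenchymal cells of the dermal papilla form few or none. Of the 10 genes of this junction that were listed (Dsp, Dsc1, Dsc2, Dsc3, Dsg2, Dsg3, Pkp1, Pkp3, Jup and Perp), 9 were found among the 19938 genes that have a probe set annotated with 1 symbol. Each of the 9 had a single such probe set, and Dsc1 is not analysed here.

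The genes were followed on 9 Affymetrix arrays of cells from mouse back skin at postnatal day 4. Of these, 4 arrays (replicates 3, 4, 5 and 6) hold skin-derived precursor cells (SKPs), which grow from dissociated skin as floating colonies and were collected as primary spheres; the labels give no strain or genotype for them. The other 5 arrays (replicates 2, 16, 17, 18 and 20) come from mice of the Sox2:EGFP line; cells with EGFP, the reporter, and without surface CD34 were sorted straight into RNAlater. Sox2 marks dermal papilla cells of the neonatal follicle, and the series title relates SKPs to follicle precursors. Culture and sorting differ between the groups together with the cells, so these cannot be told apart. In bulk RNA, fewer cells of a type and less RNA per cell cannot be told apart either.

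Values are RMA levels on a log2 scale. Sox2 lay between 8.24 and 9.25 on the sorted arrays and between 5.78 and 6.41 in SKPs. Nes, which encodes nestin and is used as a marker of SKPs, lay between 8.28 and 8.91 in SKPs and between 7.95 and 8.52 in the sorted cells (chosen after its values were seen). The groups thus overlapped for Nes, with a limma adjusted p of 0.0685. Cd34 lay between 11.14 and 11.62 in SKPs, above every sorted array. Although selected against in the sort, it reached 10.19 in sorted replicate 2 and 10.27 in replicate 20, whereas replicates 16, 17 and 18 had 7.31 to 7.82. Results are therefore also given without replicates 2 and 20. The 26 measured genes of a list restricted to other organs, such as the eye, testis and pancreas, gave a median of 5.72 and a 90th percentile of 6.54, which served as a guide to background. Their highest value was 8.13, so a level above 6.54 is not certain to be signal. This list was chosen after the members' values were seen, and 2 of its genes, Alb and Apoa2, were themselves higher in SKPs. A fold against a group with arrays under 6.54 is approximate. Among the desmosome genes this holds for Dsc3, Dsg2 and Dsg3 (all SKP arrays), Dsp and Perp (some of them) and Dsc2 (sorted replicate 2). Among the other genes named below it holds for Krt1, Krt25, Krt28, Dsg4, Ppl, Gjb2, Esrp1, Grhl1, Lepr, Wif1, Tyrp1, Cdh19 and Syp. In the sorted cells it also holds for Lyz2, C1qc and Cdh5.

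SKPs had lower levels of desmosome genes than sorted cells, with desmocollin 2 as the exception. Of the 9 genes, 8 were lower and 0 higher (limma, p adjusted by Benjamini-Hochberg for all genes tested, threshold 0.05), against 16.9% of all genes lower and 20.2% higher. The difference was at least 2-fold in all 8, against 6.25% of all genes lower by that much. For Dsc2, the only one of the 9 not called, the unadjusted p was 0.187. The median log2 fold change, SKP minus sorted, was -2.83 over the 9 genes and 0.07 over all genes tested. In the same 8 genes every SKP array lay below every sorted array, which held for 15.5% of all genes. Without sorted replicates 2 and 20, again 8 were lower and 0 higher, with a median of -2.56.

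**Figure D1:**
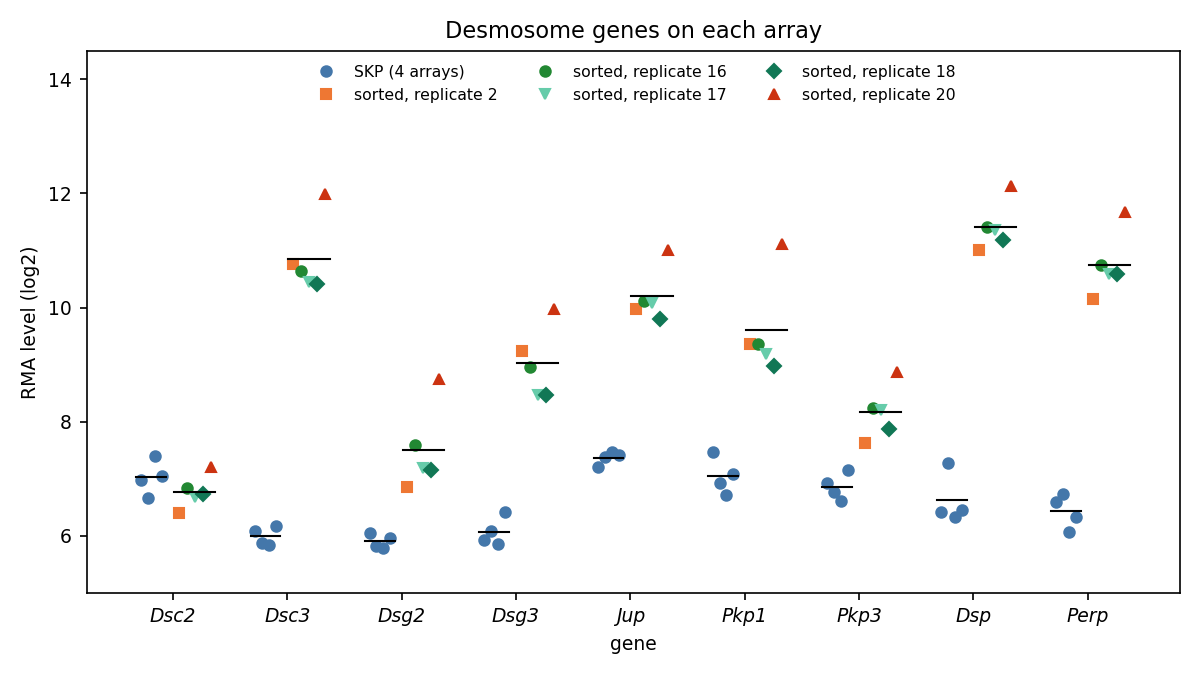
RMA level (log2, y axis) of the 9 desmosome genes (x axis) on each of 9 arrays. Each symbol is 1 array, with SKPs as blue circles and the 5 sorted replicates by colour and shape, and the black lines are group means. The groups are separate in all genes but Dsc2, and sorted replicate 20 (red triangle) is the highest sorted array in each gene.

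The desmocollins and desmogleins form the adhesive part of the junction. Desmocollin 3 (Dsc3), the form of the basal and lower epidermal layers, was at 10.76, 10.65, 10.45, 10.42 and 11.99 on sorted replicates 2, 16, 17, 18 and 20. In SKPs it was at 6.08, 5.88, 5.85 and 6.16 on replicates 3, 4, 5 and 6. All sorted arrays were thus far above the SKP arrays, which lay within the guide to background. The mean was 5.99 ± 0.16 in SKPs (SD, n = 4) and 10.85 ± 0.65 in sorted cells (n = 5), a 29.0-fold lower level in SKPs (log2 fold change -4.86, SE 0.29, limma adjusted p = 1.23e-06). As the SKP level is that of background, the size of this fold is approximate.

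Desmocollin 2 (Dsc2), the form found in simple epithelia and heart as well as in skin, behaved differently. On sorted replicates 2, 16, 17, 18 and 20 it was at 6.41, 6.84, 6.69, 6.74 and 7.20. On SKP replicates 3, 4, 5 and 6 it was at 6.98, 6.67, 7.40 and 7.05. The groups overlapped, all values were low, and the highest was an SKP array, replicate 5. The mean was 7.02 ± 0.30 in SKPs (SD, n = 4) and 6.77 ± 0.29 in sorted cells (n = 5), with a log2 fold change of 0.25 (SE 0.18, limma adjusted p = 0.305). The 95% confidence interval of this difference, -0.14 to 0.64, corresponds to ratios of SKP to sorted level from 0.906 to 1.56. These ratios are approximate, as sorted replicate 2 lay within the guide to background.

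The desmogleins are the partners of the desmocollins. Desmoglein 3 (Dsg3), which is concentrated in the basal layers and is the antigen of pemphigus vulgaris, was at 9.24, 8.96, 8.47, 8.46 and 9.98 on sorted replicates 2, 16, 17, 18 and 20, and at 5.93, 6.08, 5.85 and 6.41 on SKP replicates 3, 4, 5 and 6. Sorted replicates 2 and 20 were the highest, and the highest SKP array lay 2.05 log2 units below the lowest sorted one. The level in SKPs was 7.74-fold lower (log2 fold change -2.95, SE 0.29, limma adjusted p = 3.10e-05). Desmoglein 2 (Dsg2), the most widely expressed desmoglein, was at 6.86, 7.59, 7.19, 7.15 and 8.74 on the sorted arrays in the same order and at 6.05, 5.82, 5.79 and 5.96 in SKPs. Replicate 20 stood well above the other sorted arrays, and the SKP arrays lay within the guide to background. Dsg2 was 3.04-fold lower in SKPs (log2 fold change -1.60, SE 0.32, limma adjusted p = 0.00309) and 2.45-fold lower without replicate 20.

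The armadillo proteins sit on the cadherin tails. Plakoglobin (Jup), which also occurs in adherens junctions, was at 9.97, 10.12, 10.08, 9.80 and 11.01 on sorted replicates 2, 16, 17, 18 and 20, and at 7.21, 7.38, 7.46 and 7.42 on SKP replicates 3, 4, 5 and 6. Its SKP values, which are above the guide to background, spanned only 0.25 log2 units. Jup was 7.09-fold lower in SKPs (log2 fold change -2.83, SE 0.21, limma adjusted p = 5.71e-06). Plakophilin 1 (Pkp1), the plakophilin of the suprabasal layers, was at 9.37, 9.36, 9.19, 8.98 and 11.11 on the sorted arrays in that order and at 7.47, 6.93, 6.72 and 7.08 in SKPs. Replicate 20 exceeded the next sorted array by 1.74 log2 units. Pkp1 was 5.86-fold lower in SKPs (log2 fold change -2.55, SE 0.39, limma adjusted p = 5.57e-04), and 4.51-fold lower without replicate 20. Plakophilin 3 (Pkp3), which occurs in most epithelial desmosomes, was at 7.63, 8.24, 8.20, 7.88 and 8.88 on the sorted arrays and at 6.92, 6.76, 6.60 and 7.15 in SKPs. The groups were closest here among the 8 lower genes, with 0.49 log2 units between the highest SKP and the lowest sorted array. Pkp3 was 2.47-fold lower in SKPs (log2 fold change -1.31, SE 0.23, limma adjusted p = 0.00119).

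Desmoplakin (Dsp), the plakin that anchors keratin filaments to every desmosome, was at 11.01, 11.41, 11.35, 11.18 and 12.14 on sorted replicates 2, 16, 17, 18 and 20. On SKP replicates 3, 4, 5 and 6 it was at 6.42, 7.27, 6.33 and 6.45. The sorted arrays all lay above 11, and within SKPs replicate 4 stood apart above the other 3. The mean was 6.62 ± 0.44 in SKPs (SD, n = 4) and 11.42 ± 0.43 in sorted cells (n = 5), 27.8-fold lower in SKPs (log2 fold change -4.80, SE 0.25, limma adjusted p = 5.38e-07). Perp, a tetraspan membrane protein of desmosomes that is a target of p53 and p63, was at 10.14, 10.75, 10.60, 10.58 and 11.68 on the sorted arrays and at 6.59, 6.74, 6.07 and 6.33 in SKPs. It was 19.9-fold lower in SKPs (log2 fold change -4.32, SE 0.27, limma adjusted p = 1.72e-06). With Dsc3, these were the 3 genes with a difference above 4 log2 units.

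**Figure D2:**
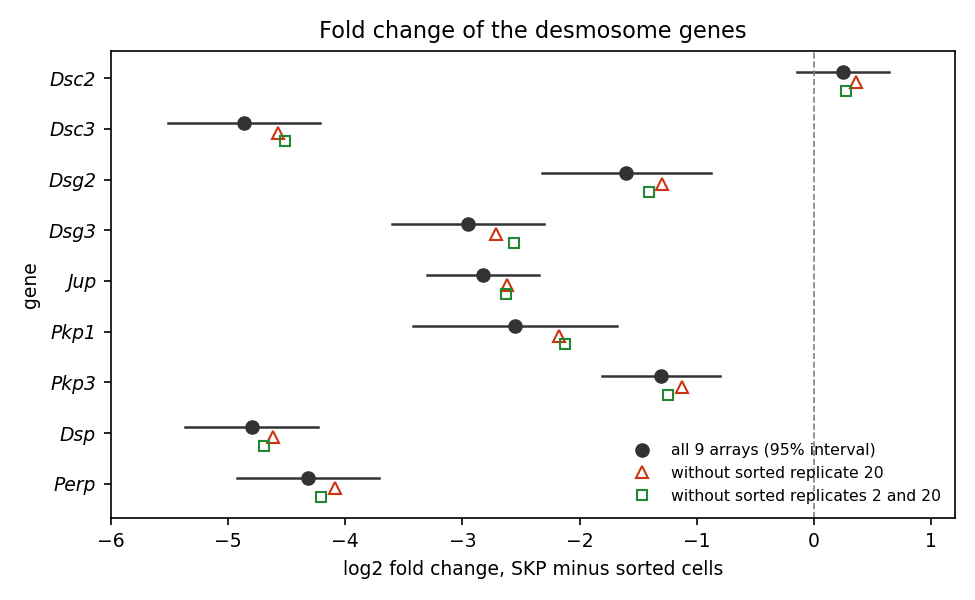
Log2 fold change (x axis, SKP minus sorted cells) of each desmosome gene (y axis) with its 95% confidence interval from limma over all 9 arrays, and the values without sorted replicate 20 or without sorted replicates 2 and 20. The intervals of 8 genes lie below 0 and that of Dsc2 spans 0.

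RefSeq promoter sequences (build GRCm38.p6, 250 bases before to 50 after the gene start) were at hand for 2 of the 9 genes, Dsp and Jup. They are shown as the only ones at hand. The capitals mark GC boxes (GGGCGG) and the E2 box (CAGGTG), searched on both strands. The E2 box is the element that Snail and ZEB repressors bind in the E-cadherin promoter. The Dsp promoter is chr13:38151044-38151343 on the plus strand and that of Jup chr11:100397741-100398040 on the minus strand.
Dsp: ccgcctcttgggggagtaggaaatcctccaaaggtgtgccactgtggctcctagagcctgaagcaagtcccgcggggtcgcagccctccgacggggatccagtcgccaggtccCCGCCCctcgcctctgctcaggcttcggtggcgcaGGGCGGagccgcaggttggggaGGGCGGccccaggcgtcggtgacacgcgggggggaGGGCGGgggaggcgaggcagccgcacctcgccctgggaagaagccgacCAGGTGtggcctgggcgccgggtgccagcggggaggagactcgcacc
Jup: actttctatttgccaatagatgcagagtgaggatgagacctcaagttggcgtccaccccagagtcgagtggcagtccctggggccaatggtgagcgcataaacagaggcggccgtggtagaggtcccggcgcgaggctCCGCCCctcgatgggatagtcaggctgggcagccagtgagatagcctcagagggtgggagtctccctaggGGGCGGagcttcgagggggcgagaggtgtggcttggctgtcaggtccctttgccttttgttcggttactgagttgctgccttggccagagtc

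The Dsp promoter held 3 GC boxes on the gene's strand and 1 on the other, and that of Jup 1 on each strand. Among 32851 promoters of the same length, 35.7% held at least 1. The E2 box occurred once in Dsp, in the bases after the gene start, and was not found in Jup, and 20.2% of promoters held it. The Jup promoter had 2 CCAAT boxes (37.4% of promoters) and Dsp none. Neither window held a TATA box (TATAAA, 13.6% of promoters) or an AP-1 site (TGANTCA, 7.81%). Both were rich in G and C, at 73.0% for Dsp and 60.7% for Jup, against a median of 52.7% over all promoters. These matches describe letters only and no binding was measured.

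In 3 pairs defined by family (Dsc2 and Dsc3, Dsg2 and Dsg3, Pkp1 and Pkp3), the difference between relatives was taken within each array and compared between groups. Dsc2 minus Dsc3 was 1.03 ± 0.35 in SKPs (log2, SD, n = 4) and -4.08 ± 0.48 in sorted cells (n = 5), so the measured fold changes of the relatives differed by 5.11 log2 units (exact two-sided permutation test, p = 0.0159, adjusted over 3 pairs 0.0159). As Dsc3 was at background in SKPs and Dsc2 was low on all arrays, the size of this gap is approximate. Dsc3 alone separated the groups by at least 4.26 log2 units, more than Dsc2 varied over all arrays. The p for this pair therefore follows from Dsc3 and adds nothing on Dsc2. Dsg2 minus Dsg3 was -0.16 ± 0.25 in SKPs and -1.51 ± 0.49 in sorted cells. Both genes were at background in SKPs, so their fold changes are not compared. Pkp1 minus Pkp3 was 0.19 ± 0.26 in SKPs and 1.44 ± 0.53 in sorted cells, a gap of -1.24, again with an exact p of 0.0159. This is the smallest p that 4 against 5 arrays allow. Without sorted replicates 2 and 20 the gaps were 4.78 for the desmocollins and -0.88 for the plakophilins. In the RefSeq gene order the desmosomal cadherins lie together on chromosome 18 as Dsc3, Dsc2, Dsc1, the Dsg1 genes, Dsg4, Dsg3 and Dsg2, so Dsc2 and Dsc3 are neighbours.

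**Figure D3:**
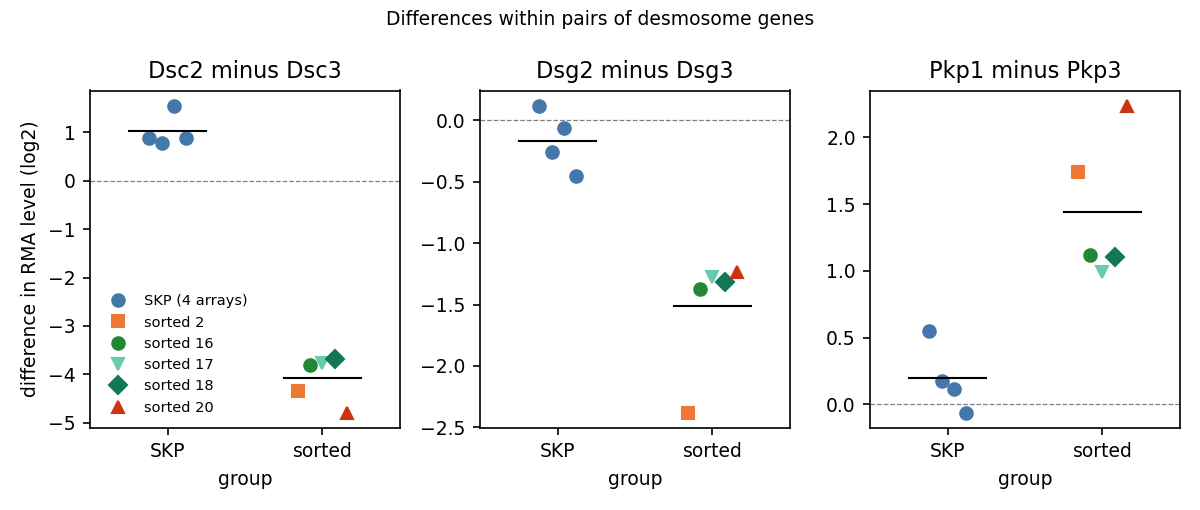
Difference in RMA level (log2, y axis) between 2 desmosome genes of 1 family within each array, by group (x axis). Symbols are arrays and lines are group means. In each panel the 4 SKP arrays are separate from the 5 sorted arrays; Dsc3, Dsg2 and Dsg3 were at background in SKPs, so the left and middle panels do not give the full size of a difference.

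Among the sorted arrays, replicate 20 had the highest level in 9 of 9 desmosome genes, whereas 26.1% of all genes were highest there. Its excess over the mean of replicates 16, 17 and 18 was largest for Pkp1 (1.94, or 3.83-fold), followed by Dsc3 (1.48), Dsg2 (1.43) and Dsg3 (1.35). It was smallest for Dsc2 (0.45), Pkp3 (0.77) and Dsp (0.82), with a median of 1.04 over the 9 genes and -0.02 over all genes. Replicate 2, whose Cd34 level was like that of replicate 20, did not share this excess. It lay below replicates 16, 17 and 18 in 5 genes (Dsp, Dsc2, Dsg2, Pkp3 and Perp) and above them in 3 (Dsc3, Dsg3 and Pkp1), and for Jup it lay between them. Its largest deviations from the mean of those 3 arrays were 0.60 for Dsg3 and -0.50 for Perp. Replicates 16, 17 and 18 were close to each other, with spans of 0.15 (Dsc2) to 0.50 (Dsg3) log2 units.

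Keratins of the epidermis and follicle sheath, the filaments that desmosomes anchor, varied far more among the sorted arrays. Of 11 epithelial keratins, 9 were lower in SKPs and 0 higher, with a median log2 fold change of -2.73 (-1.60 without sorted replicates 2 and 20). The count was 6 to 9 when single arrays were left out, with 6 without SKP replicate 4, 5 or 6. Krt5, of basal keratinocytes, was 25.6-fold lower (16.4-fold without sorted replicates 2 and 20) and Krt17, of the follicle sheath, 23.1-fold lower. The span over the 5 sorted arrays was 1.17 to 6.37 log2 units for these keratins and 0.79 to 2.13 for the desmosome genes. Krt1, of suprabasal epidermis, was at 11.59 and 13.29 on replicates 2 and 20 and at 6.92 to 8.28 on the other 3. It was 12.7-fold lower in SKPs with a limma adjusted p of 0.0352. This call was lost without any 1 SKP array or sorted replicate 2 (adjusted p up to 0.0817), and the fold was 6.59 without sorted replicate 20 and 19.9 without sorted replicate 17.

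Marker genes of the inner root sheath and hair shaft, mostly keratins but also Tchh, Gata3 and Hoxc13, were arranged the other way round. The mean of the 12 measured was 10.05 to 10.16 on replicates 16, 17 and 18 and 7.43 and 7.36 on replicates 2 and 20, against 5.80 to 6.10 in SKPs. Of these, 10 were lower in SKPs and 0 higher, led by Krt25 (27.3-fold) and Krt28 (21.9-fold). Without sorted replicate 20 Krt25 was 43.2-fold lower, and without both replicates Krt25 was 76.3-fold and Krt28 50.2-fold lower. Dsg4, the desmoglein of the hair shaft, had this pattern, at 8.86, 8.56 and 9.01 on replicates 16, 17 and 18 and at 5.72 and 5.81 on replicates 2 and 20. In SKPs it was at 4.89 to 5.33, which is background. Dsg4 was 5.61-fold lower in SKPs (limma adjusted p = 0.0210), or 13.1-fold without sorted replicates 2 and 20. The call was lost without SKP replicate 3 (adjusted p = 0.0568) or 5 (0.0531) and without sorted replicate 17 (0.0503).

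**Figure D4:**
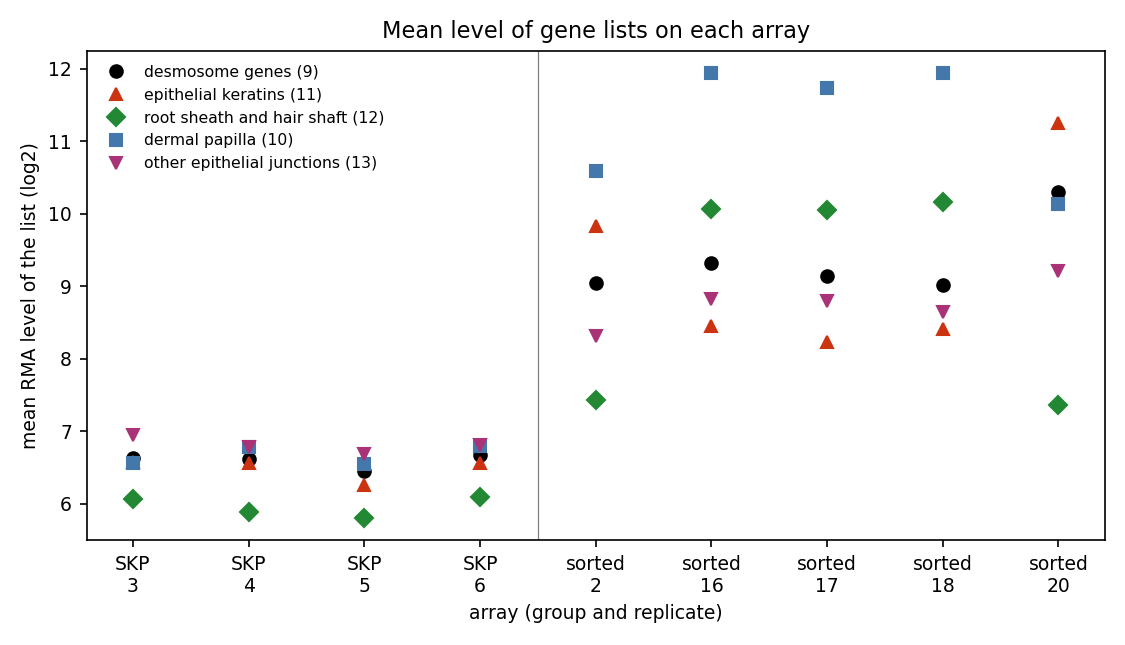
Mean RMA level (log2, y axis) of 5 gene lists on each array (x axis), with the number of measured genes in brackets. The desmosome mean lies between 9.02 and 9.32 on sorted replicates 2, 16, 17 and 18 and at 10.30 on replicate 20, while the keratin and hair shaft means move in opposite directions between replicates 2 and 20 and the other 3.

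Other genes of the desmosome were mostly lower as well. Of 9 listed (Dsg1a, Dsg1b, Dsg1c, Dsg4, Pkp2, Pkp4, Evpl, Ppl and Cdsn), 8 were measured by a probe set with 1 symbol, of which 7 were lower in SKPs and 0 higher, with a median log2 fold change of -0.81. After Dsg4, the largest change in this list was in periplakin (Ppl), a plakin of the desmosome and cornified envelope, at 7.89, 8.60, 8.57, 8.61 and 9.62 on sorted replicates 2, 16, 17, 18 and 20 and 6.01 to 6.75 in SKPs. Ppl was 4.70-fold lower (limma adjusted p = 2.18e-04). Counts on leaving out single arrays were 4 to 7, with 4 lower without SKP replicate 3. Close paralogues in the Dsg1 cluster may share probes, so their values are uncertain.

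Genes of other junctions between epithelial cells were also mostly lower in SKPs. Of 13 genes in a list of epithelial adherens, tight and gap junctions, which also holds the splicing regulator Esrp1, 12 were lower and 0 higher, with a median of -1.99, led by the connexin gene Gjb2 (14.3-fold) and Esrp1 (13.9-fold). Hemidesmosome genes, which tie basal keratinocytes to the basement membrane, were lower in 2 of 8, with 0 higher, against 16.9% of all genes lower. The 2 were the integrin gene Itgb4 (3.21-fold) and Dst (2.02-fold), and 4 of 8 were lower without sorted replicate 20. With array weights, 3 of 8 were lower and 1 higher. Catenins and junction genes shared with mesenchyme were lower in 6 of 10, with 0 higher and a median of -0.47, led by vinculin (Vcl, 1.89-fold) and afadin (Afdn, 1.79-fold). Of these, 4 were lower without SKP replicate 4 or 6. Of 12 epithelial transcription factors, 11 were lower and 0 higher, with a median of -1.69, led by Grhl1 (6.42-fold), a Grainyhead-like factor, and Klf4 (4.37-fold).

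Markers of several cell types moved with the desmosome genes. All 10 keratinocyte markers were lower in SKPs (7 to 10 when single arrays were left out, 7 without SKP replicate 4, 5 or 6). Most of these markers are also in the lists of epithelial keratins, junction genes or transcription factors above. Their count is therefore not separate from the counts of those lists. The lowest sorted value of any of the 10 markers was 6.92, for Krt1 on replicate 17. Their mean level was 6.54 to 6.88 in SKPs, 8.93 to 9.07 on sorted replicates 16, 17 and 18, 10.01 on replicate 2 and 11.72 on replicate 20. Each of the 10 was highest on replicate 20. Dermal papilla markers, in contrast, were 11.74 to 11.94 on replicates 16, 17 and 18, and 10.58 and 10.14 on replicates 2 and 20. All 10 were lower in SKPs, led by Lepr (84.7-fold, 157-fold without replicates 2 and 20) and Wif1 (64.7-fold, 102-fold without them). The part of keratinocyte RNA in the difference in desmosome genes was not tested.

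Of 6 melanocyte markers, 6 were lower in SKPs, among them Tyrp1 (9.50-fold) and Dct (7.76-fold), and their mean was 8.16 to 8.98 on the sorted arrays, highest on replicate 20, and 6.27 to 6.63 in SKPs. All 4 measured Schwann cell markers were lower, among them Erbb3 (18.2-fold) and Cdh19 (8.30-fold), with means of 8.76 to 9.44 on the sorted arrays, lowest on replicate 20, and 6.27 to 6.61 in SKPs. Merkel cells are Sox2-positive epithelial cells with desmosomes. Of 8 Merkel markers, Syp alone was lower (1.41-fold, limma adjusted p = 0.0336), a call lost without SKP replicate 4 or 5 or sorted replicate 2 or 18 (adjusted p up to 0.0930) and on quantile normalization (0.0517), median centring (0.0542) or array weighting (0.0522). Without sorted replicates 2 and 20, 2 were lower, Syp and Piezo2, the latter chosen after its values were seen. The mean of the 8 markers was 6.71 to 7.04 on the sorted arrays and 6.53 to 6.92 in SKPs. Atoh1, the defining factor of Merkel cells, was at 5.54 to 5.92 on sorted replicates 2, 16, 17 and 18 and 7.09 on replicate 20 (chosen after its values were seen). Limma did not call Atoh1 in any setting, and 7.09 is below the highest value of the genes of other organs, 8.13.

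Of 6 endothelial markers, 0 were called by limma, and their mean was 6.03 to 6.92 on sorted replicates 2, 16, 17 and 18, 7.52 on replicate 20 and 6.17 to 6.58 in SKPs. The brightest, Cdh5, had a log2 fold change of 0.43 (limma adjusted p = 0.361). Without sorted replicate 20, 1 was higher, and without both replicates 2 were, including Cdh5 (1.89-fold). Myeloid markers were higher in SKPs in 6 of 6, led by Lyz2 (24.3-fold) and C1qc (4.23-fold), with means of 7.46 to 9.13 against 5.99 to 6.40. SKP replicate 5, which had the highest Dsc2 level, also had the highest myeloid mean, and their relation was not tested.

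The genes whose profile over the 9 arrays was nearest to the mean of the desmosome genes, each centred on its own mean, were Sfn, Ptprf, Dct, Crybg1 and Scel, at mean absolute distances of 0.12, 0.13, 0.16, 0.17 and 0.18 log2 units. Among the desmosome genes themselves this distance was smallest for Jup (0.10) and Dsg3 (0.21) and largest for Dsc2 (1.49). Each desmosome gene is part of that mean, which draws the mean towards it, so these distances are not compared with those of the other genes. Sfn, which encodes the 14-3-3 sigma protein of stratified epithelium, was at 9.52, 9.55, 9.51, 9.37 and 10.50 on sorted replicates 2, 16, 17, 18 and 20 and 6.73 to 7.04 in SKPs. Ptprf, a receptor tyrosine phosphatase, was at 9.68 to 9.92 on the first 4 of these and 10.97 on replicate 20, against 7.44 to 7.63 in SKPs. Both were picked for nearness to the desmosome mean, so their step on replicate 20, as in Jup, is part of that choice. Scel encodes sciellin, a precursor of the cornified envelope, and Dct is a pigment enzyme of melanocytes.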

How the data were processed

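The authors deposited log2 values, 1 per probe set and array, made with RMA. Affymetrix Expression Console and limma are also listed in the submitters' processing notes, with no version given. RMA adjusts background, normalizes quantiles between arrays and summarises probes. Of 35556 probe sets, 21789 have 1 symbol in the platform annotation, giving 19938 genes; the brightest probe set was used for the 999 genes with several. The test used limma 3.58.1 under R 4.3.3 (lmFit and eBayes, no trend, not robust) on SKP minus sorted, two-sided, called at an adjusted p under 0.05, after a check on simulated data. Preparations are independent per the design text, and the number of arrays limits the precision. Pairs of genes were compared by exact permutation (scipy 1.17.1), and figures drawn with matplotlib 3.10.9.

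The genes and lists were chosen with earlier results of these data known. Named genes are all members, the 2 called genes of each list with the largest change in each direction (the brightest if none), Cd34 and Sox2, and the 5 nearest profiles. Other names are marked as chosen after their values were seen. Alternatives were quantile normalization, median centring, removal of the lowest 33.3% of genes (log2 under 6.31), means over probe sets, array weights, trend and robust fitting, an adjusted p under 0.01 and leaving out arrays. No build is named in the labels, so coordinates are given only for RefSeq promoters. Detection p-values were not used here.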

Additional observations from a re-analysis of the deposited data

Results flagged for a closer look

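Several values stood apart within their group by Dixon's test, which flags about 1 in 20 groups by chance; 48 groups of 4 or 5 arrays were tested and 9 flags found. The groups are not independent, as list means hold tested genes and lists share genes. The number of flags is therefore not compared with chance. Sorted replicate 20 was far above the next sorted array for Dsc3 (11.99 against 10.76), Pkp1 (11.11 against 9.37), Jup (11.01 against 10.12) and the mean of the 9 desmosome genes (10.30 against 9.32). It was far below the others for the mean of the myeloid markers (5.99 against 6.30). SKP replicate 4 was far above the other SKP arrays for Dsp (7.27 against 6.45). Sorted replicate 2 was far below the others for the mean of the other desmosome genes (7.13 against 7.64). SKP replicate 5 was lowest for the mean of the epithelial keratins (6.25 against 6.56) and highest for the mean of the catenins and mesenchymal junction genes (10.15).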

How the results depend on the processing

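The 8 desmosome genes called lower and the 0 called higher were the same in number under all 17 alternatives, and each of the 9 genes kept its direction and its side of the threshold. The median log2 fold change of the genes lay between -2.93 and -2.55. Dsc2 kept a positive log2 fold change of 0.12 to 0.37, with limma adjusted p from 0.0688 to 0.601. Array weights raised the number of all genes higher in SKPs from 4020 to 6145 and of those lower from 3366 to 4505. The cause was not tested. Leaving out 1 array gave 3396 to 4568 genes higher and 2841 to 3751 lower, against 3366 lower with all. Median centring shifted the median log2 fold change of all genes from 0.07 to 0.14, and the share of calls that were higher rose from 54.4% to 64.4%. No paired analysis was possible because the groups share no replicate number. Values near background make the folds of Dsc2, Dsc3, Dsg2, Dsg3, Dsp and Perp approximate.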
